A study of Mus musculus with 7 samples.

Results

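TRAF adaptors and NF-kB subunits carry the signal of OX40 and related receptors from the cell membrane to the nucleus, and their transcripts were measured here in lesional skin of bleomycin-treated mice. The genes were chosen by name, as the probe sets whose platform gene symbol was Traf1, Traf2, Traf3, Traf5, Traf6, Nfkb1, Nfkb2, Rel, Rela or Relb. Of these 10 genes, 8 were found among the 23185 genes with a symbol, 4 TRAF adaptors and 4 NF-kB subunits, with 1 probe set each. Traf3 and Nfkb1 were not analysed here.

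The arrays came from 4 ox40l-/- (knockout) and 3 ox40l+/+ (wild type) skin samples, 1 Affymetrix array for each. All 7 samples were from male C57BL/6 mice aged 9 weeks that had been injected with bleomycin for 3 weeks, a common way to induce skin fibrosis, so bleomycin is shared by both genotypes and its own effect was not compared. The labels say neither how the allele was made nor whether the samples are from separate animals. RNA came from whole skin tissue, in which fewer cells of a type and less RNA per cell cannot be told apart.

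OX40, the product of Tnfrsf4, is a receptor of activated T cells with no enzymatic activity of its own. When its ligand OX40L (Tnfsf4) binds, TRAF adaptors gather at its tail and pass the signal on by 2 routes. The canonical route runs through the IKK kinase complex, which marks the inhibitor IkB for destruction and frees dimers of RelA or c-Rel. The noncanonical route is held in check by TRAF adaptors and the cellular inhibitor-of-apoptosis proteins, which keep the kinase NIK (Map3k14) at low amounts, and it ends in the processing of the Nfkb2 precursor that partners RelB. Both routes also serve many other receptors in keratinocytes, fibroblasts, endothelium and leukocytes. Activation is largely post-translational, so a transcript level is not a measure of NF-kB activity.

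Several genes of the pathway are themselves known NF-kB targets, and their promoter sequences are described here. Whether these sequences bear on the levels below was not tested. RefSeq promoter windows (GRCm38.p6, 250 bases before to 50 bases after a start) were found for 7 of the 8 measured genes, in 9 windows. The 10-letter kB consensus, searched on both strands, occurred in 4 of these 9 windows (44.4%), 3 of Nfkb2 and 1 of Rel. It occurred in 1907 of all 32851 windows (5.8%). Counted by gene, 2 of the 7 held a match. The later Nfkb2 windows overlap and hold the same site, so windows are not independent, and the shares were not tested against each other. The consensus also occurred in the windows of Nfkbia and Tnfaip3, the genes of an IkB protein and of the deubiquitinase A20. The 100 bases before the annotated start of these 4 genes are shown because they hold the matches, 5′ to 3′ on the strand of the gene, with kB matches in capitals. The Nfkb2 stretch lies at chr19:46304637-46304736 on the plus strand, and the others on the minus strand at chr11:23770970-23771069 (Rel), chr12:55492648-55492747 (Nfkbia) and chr10:19015411-19015510 (Tnfaip3).
Nfkb2: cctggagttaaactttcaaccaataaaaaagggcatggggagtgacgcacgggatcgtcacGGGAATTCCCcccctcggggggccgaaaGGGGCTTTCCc
Rel: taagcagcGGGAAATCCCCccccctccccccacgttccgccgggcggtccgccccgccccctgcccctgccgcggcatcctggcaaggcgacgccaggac
Nfkbia: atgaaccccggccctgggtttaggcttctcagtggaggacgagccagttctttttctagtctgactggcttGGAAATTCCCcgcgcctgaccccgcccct
Tnfaip3: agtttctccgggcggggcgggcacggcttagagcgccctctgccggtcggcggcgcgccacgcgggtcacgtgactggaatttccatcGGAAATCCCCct

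The Nfkb2 stretch holds 2 separate matches, and the first of them reads the same on both strands. In Rel, 2 overlapping matches on the opposite strand form the capital run. Another match in Nfkb2, GGGACTTTCC at chr19:46305705-46305714, lies in both of its later promoter windows, and this exact sequence occurs in 51 of all 32851 windows (0.155%). No kB match was found in the windows of Traf1, Traf2, Traf5, Traf6 and Rela, which says only that these letters are not in those windows. A match is a description of the sequence, and no binding was measured.

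The arrays were not alike in their spread, which touches every result below. Pearson's r between arrays, taken over probe sets that are not independent of each other, was 0.956 to 0.969 among the 4 knockout arrays and wild type replicate 2. It was 0.761 to 0.914 for pairs that held wild type replicate 1 or 3. Within an array, log2 values had an SD of 1.38 to 1.48 on the knockout arrays, against 1.72, 1.46 and 1.22 on wild type replicates 1, 2 and 3. Over all genes the median SD within a genotype was 0.188 in knockout and 0.387 in wild type. Differences are therefore also given with single arrays left out and without both wild type replicates 1 and 3; the single wild type array then left has no spread of its own, and the test takes that of the knockout group.

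None of the 8 genes passed the test between genotypes. At an unadjusted p under 0.05, 0 of 8 passed, against 1.88% of all genes. At an adjusted p under 0.05 (limma, Benjamini-Hochberg over 23185 genes), 0 of 8 passed, against 0.00431% of all genes, which is 1 gene. The smallest unadjusted p was 0.379, for Nfkb2, and the adjusted p was 0.9995 or above for each of the 8. In 0 of 8 genes were the genotypes free of overlap, against 1.91% of all genes. All 8 differences were under 0.2 in size on the log2 scale. The 95% limma confidence interval lay within 2-fold either way for all 8 and within 1.5-fold for 5. These intervals rest on a spread pooled over both genotypes. The SDs within genotypes were unequal, for Rela 0.064 in knockout and 0.70 in wild type. Where wild type varied more, the intervals may be too narrow and are not firm bounds on the change. Differences are knockout minus wild type throughout.

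**Figure D1:**
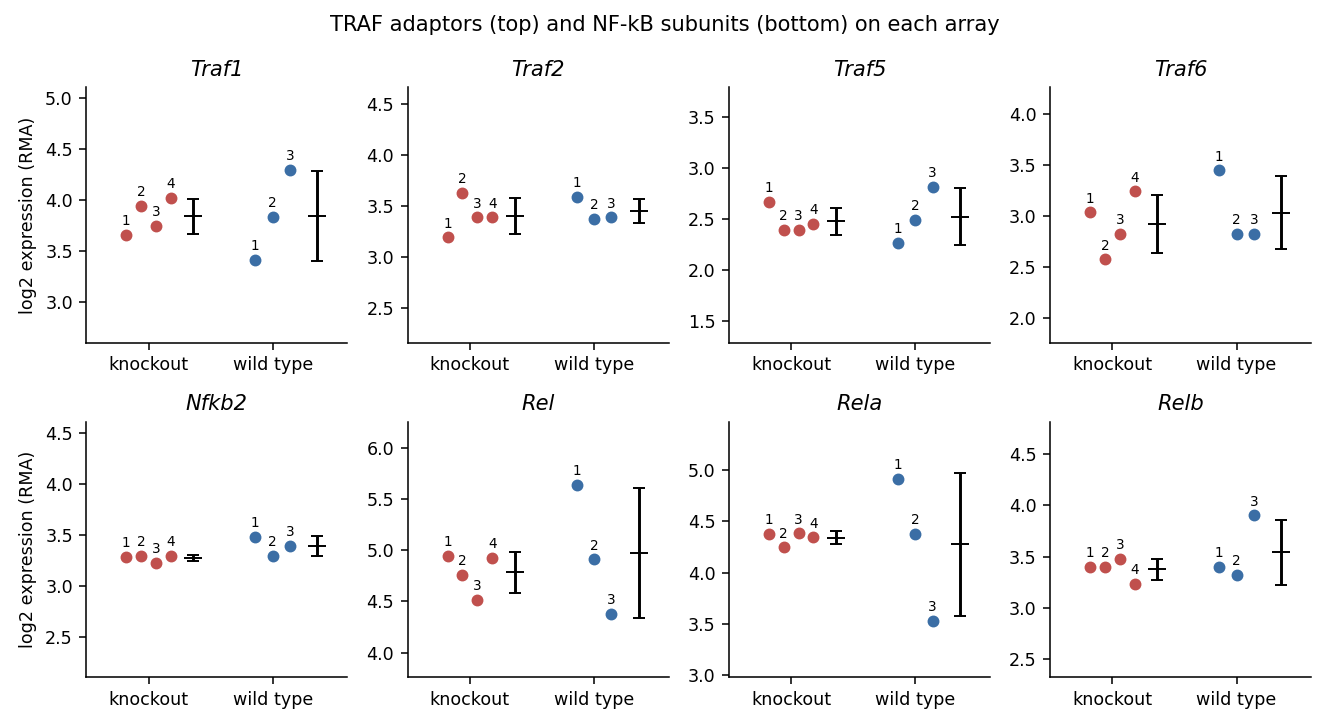
Log2 expression (RMA, vertical axis) of 4 TRAF adaptors and 4 NF-kB subunits on each array, knockout in red and wild type in blue, with replicate numbers above the points and the mean ± SD in black beside them (n = 4 and n = 3). Each panel spans the same range; the genotypes overlap in all 8 genes, and wild type replicates 1 and 3 lie at the ends of the wild type range for Traf1, Traf5, Rel and Rela.

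Traf2 and Traf5 bind the OX40 tail directly. Traf2, a RING ubiquitin-ligase family adaptor that brings the inhibitor-of-apoptosis proteins to the receptor, had log2 values of 3.19, 3.63, 3.39 and 3.39 in knockout replicates 1 to 4, against 3.59, 3.38 and 3.39 in wild type replicates 1 to 3. Knockout replicates 1 and 2 bracketed all other arrays, so the whole wild type range lay inside that of knockout. Its mean was 3.40 ± 0.18 in knockout and 3.45 ± 0.12 in wild type (SD, n = 4 and n = 3), a difference of -0.051 (SE 0.15, 95% interval -0.40 to 0.30). The sign turned without wild type replicate 1 (0.0182) and without knockout replicate 1 (0.018).

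Traf5, a close relative that acts beside Traf2 at OX40, had values of 2.67, 2.39, 2.40 and 2.45 in knockout, against 2.27, 2.49 and 2.82 in wild type. The highest and the lowest array were both wild type, and every knockout array fell between them. The difference was -0.047 (SE 0.17, interval -0.45 to 0.35), and it was -0.177 without wild type replicate 1 and 0.0979 without replicate 3. Both Traf2 and Traf5 had means below 3.59, the median over all genes and arrays, as did Traf6, Nfkb2 and Relb. No detection calls were used here, so how far these 5 genes stood above background is unknown.

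Traf1 lacks the RING domain of the other adaptors, is known to be induced by NF-kB in activated lymphocytes, and forms complexes with Traf2. It had values of 3.65, 3.94, 3.74 and 4.02 in knockout, against 3.41, 3.83 and 4.29 in wild type. Again the extremes were wild type replicates 1 and 3, with all 4 knockout arrays between them. The genotype means were almost the same, 3.84 ± 0.17 in knockout and 3.85 ± 0.44 in wild type, a difference of -0.0062 (SE 0.23, interval -0.53 to 0.52). The value moved to -0.223 without wild type replicate 1 and to 0.217 without wild type replicate 3. It was also above 0 without knockout replicate 1 (0.0552) or 3 (0.026).

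Traf6, the adaptor of the interleukin-1 receptor and Toll-like receptor routes, which also serves some TNF receptors such as CD40, had values of 3.04, 2.58, 2.83 and 3.24 in knockout, against 3.45, 2.83 and 2.83 in wild type. Wild type replicate 1 was the highest array and the other wild type arrays lay inside the knockout range. The difference was -0.11 (SE 0.23, interval -0.65 to 0.43) and turned to 0.0942 without wild type replicate 1 and to 0.00207 without knockout replicate 2. Its value was identical on knockout replicate 3 and wild type replicates 2 and 3, as the median polish of RMA can return.

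Among the NF-kB subunits, Rel and Rela were the most uneven within wild type. Rel encodes c-Rel, a subunit most abundant in lymphoid and myeloid cells. It had log2 values of 4.95, 4.76, 4.51 and 4.93 in knockout, against 5.64, 4.91 and 4.38 in wild type. Wild type replicate 1 was the highest of all arrays and wild type replicate 3 the lowest, with the knockout arrays between. The difference was -0.19 (SE 0.29, interval -0.88 to 0.50), was -0.488 without wild type replicate 3, and turned to 0.144 without wild type replicate 1. After quantile normalization of the deposited values it was -0.0115.

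Rela encodes RelA, the transactivating subunit of the canonical dimer in most cell types. Its values were 4.38, 4.25, 4.38 and 4.35 in knockout, against 4.92, 4.38 and 3.53 in wild type. The knockout arrays lay within a narrow band, with an SD of 0.064, against 0.70 in wild type, and wild type replicate 2 fell in that band. Rela had the only positive difference of the 8 genes, 0.062 (SE 0.30, interval -0.65 to 0.77). It was 0.383 without wild type replicate 1 and -0.312 without wild type replicate 3, so its sign rested on which of those arrays was kept.

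Nfkb2 and Relb encode the noncanonical pair. Nfkb2, whose precursor protein is cut to the active subunit and whose promoter holds the kB matches shown above, had values of 3.29, 3.30, 3.23 and 3.29 in knockout, against 3.49, 3.29 and 3.39 in wild type. Wild type replicates 1 and 3 were above all knockout arrays and wild type replicate 2 was among them, so the genotypes overlapped by this array alone. The mean was 3.28 ± 0.031 in knockout and 3.39 ± 0.096 in wild type (SD), a difference of -0.11 (SE 0.12, interval -0.39 to 0.17). Its sign was negative in all 17 alternatives that kept the gene, from -0.161 without wild type replicate 2 to -0.0156 without wild type replicates 1 and 3. This count is not independent support, because all alternatives reuse the same arrays. Trend with robust moderation, the 30% dim filter and all probe sets cannot change the difference at all. Both means of Nfkb2 were below the median over all genes and arrays, so how far it stood above background is unknown.

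Relb, which lacks an efficient route to homodimers and acts with the Nfkb2 product, had values of 3.40, 3.40, 3.48 and 3.23 in knockout, against 3.40, 3.32 and 3.90 in wild type. Wild type replicate 3 alone stood above the rest, and the other wild type arrays lay within the knockout range. The difference was -0.16 (SE 0.18, interval -0.58 to 0.25) and became 0.017 without wild type replicate 3.

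The 8 genes did not move together on the arrays. Wild type replicate 1 held the highest value in 4 of them (Traf6, Nfkb2, Rel and Rela) and the lowest in 2 (Traf1 and Traf5), while wild type replicate 3 held the highest in 3 (Traf1, Traf5 and Relb) and the lowest in 2 (Rel and Rela). Over all genes, wild type replicate 1 was highest in 25.7% and lowest in 39.7%, and wild type replicate 3 highest in 30.7% and lowest in 19.7%. Wild type replicate 2 held neither the highest nor the lowest value in any of the 8.

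**Figure D2:**
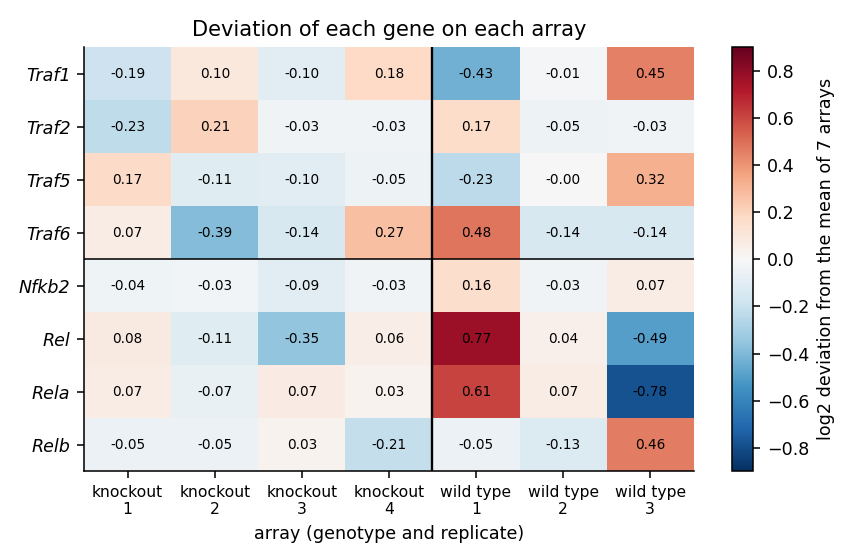
Deviation of each gene from its mean over the 7 arrays (log2, colour and printed value), with genes down the page, knockout arrays to the left and wild type arrays to the right. Rel and Rela deviate by 0.77 and 0.61 on wild type replicate 1 and by -0.49 and -0.78 on wild type replicate 3, while Traf1 and Traf5 deviate the other way on those arrays.

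By direction, 7 of the 8 differences were below 0, against 48.3% of all genes. The median difference was -0.082 for the 8 genes and 0.0096 for all genes. These counts changed with the wild type arrays: 4 of 8 were below 0 without wild type replicate 1 (median -0.0237), 5 of 8 without wild type replicate 3 (median -0.0967), and 4 of 8 without both (median -0.00444). After quantile normalization or centring on array medians, 7 of 8 were again below 0. Without both, the differences were 0.00673 for Traf1, 0.0243 for Traf2, -0.0166 for Traf5, 0.0942 for Traf6, -0.0156 for Nfkb2, -0.124 for Rel, -0.0419 for Rela and 0.0546 for Relb. The plot of differences with wild type arrays left out shows Rela and Rel spread most widely, on both sides of 0.

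**Figure D3:**
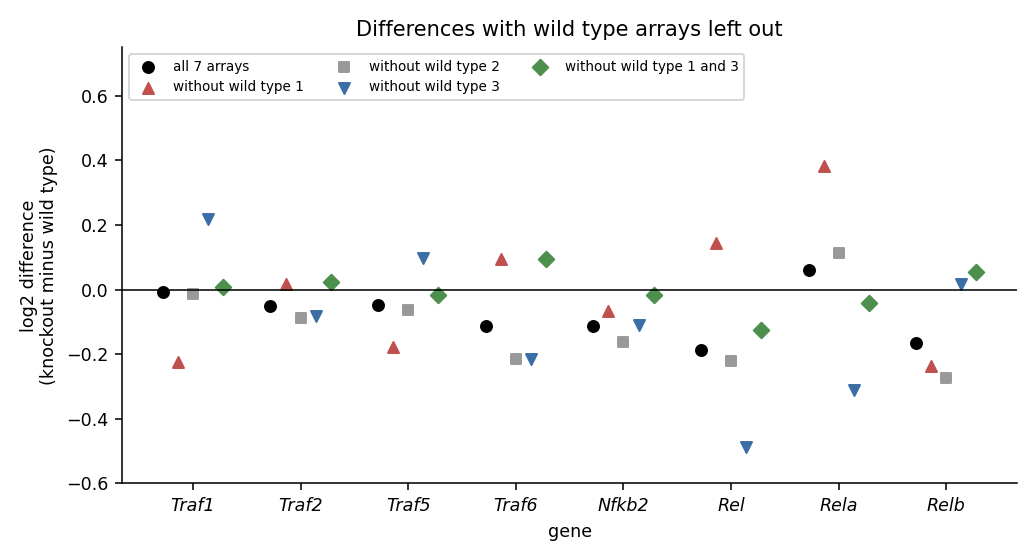
Log2 difference (knockout minus wild type, vertical axis) of each gene (horizontal axis) with all 7 arrays and with wild type arrays left out. Rela lies at 0.383 without wild type replicate 1 and at -0.312 without wild type replicate 3, and of the 8 genes only Nfkb2 lies below 0 in all 5 settings drawn.

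Keratinocyte, hair follicle and fibroblast marker lists ran in the same order as Rel and Rela across the wild type arrays. T and B cell marker lists ran in the reverse order. The mean deviation of 9 keratinocyte markers was -0.032 to 0.089 in knockout, against 0.80, -0.11 and -0.78 on wild type replicates 1, 2 and 3, with 5 markers higher and 4 lower in knockout and summed levels of 64.9 to 66.0 in knockout and 58.2 to 72.3 in wild type. For 11 measured hair follicle markers it was -1.19 to -0.19 in knockout, against 3.30, 0.15 and -0.81 in wild type, and all 11 had lower means in knockout. Their summed levels were 39.0 to 50.1 in knockout and 43.3 to 88.5 in wild type. For 9 fibroblast markers it was -0.18 to 0.21 in knockout, against 0.59, 0.21 and -0.69 in wild type, with 3 higher and 6 lower in knockout and summed levels of 51.4 to 54.9 in knockout and 46.8 to 58.3 in wild type. The mean deviation was also lowest on wild type replicate 3 for 7 myeloid markers (-0.57, against -0.17 to 0.15 in knockout), with 3 higher and 4 lower in knockout. So it was for 10 skeletal muscle markers (-1.43, against 0.018 to 0.65 in knockout), with 8 higher and 2 lower. For 8 adipocyte markers it was -0.64 there, against -0.28 to 0.35 in knockout, with 6 higher and 2 lower. For 5 endothelial markers it was -0.38, against -0.21 to 0.29, with 3 higher and 2 lower. Single markers of these lists differed, with Cd14, Fabp4 and Emcn lowest on wild type replicate 1 and Myh2 on knockout replicate 2. The reverse order held for 12 T cell markers, at -0.22, -0.098 and 0.155 on wild type replicates 1, 2 and 3 (-0.026 to 0.11 in knockout). For 5 measured B cell markers the values were -0.56, -0.063 and 0.43 (-0.073 to 0.18 in knockout), with 3 higher and 2 lower in knockout. The SD over probe sets, given above, fell over wild type replicates 1 to 3, in the order of Rel and Rela. No marker was at 0 on any array, and the part of these values in the Rel and Rela levels was not tested.

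Krt14, the basal keratin of epidermis, was at 10.24 to 10.67 in knockout and at 9.54 to 10.94 in wild type. Acta1, the actin of skeletal muscle, was at 10.56 to 11.12 in knockout and at 9.05 to 10.71 in wild type. OX40 acts mainly in T cells, and 12 of 14 listed T cell markers were measured, 9 with higher and 3 with lower means in knockout and a median difference of 0.081. Their summed level was 43.2 to 44.8 in knockout and 40.9 to 45.4 in wild type, and none was at 0. Cd3d and Cd3g, chains of the T cell receptor complex, named here after their values were seen, were the 2 of 12 T cell markers without overlap, against 1.91% of all genes. Cd3d was at 3.61, 3.28, 3.15 and 3.64 in knockout, against 2.86, 3.01 and 2.66 in wild type, a difference of 0.58 (SE 0.18, limma adjusted p = 0.9995). Cd3g differed by 0.22, whereas Cd3e and Cd247, chains of the same complex, differed by -0.089 and 0.043.

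The ligand and receptors upstream of the adaptors showed no difference that passed. Of 13 receptors and ligands, all measured, 6 were higher and 7 lower in knockout, 0 passed at an adjusted or unadjusted p under 0.05, and the median difference was -0.024. Tnfsf4, the targeted gene, was at 3.35, 2.82, 2.81 and 2.81 in knockout, against 2.53, 2.60 and 3.65 in wild type. Whether its probe set lies inside the deleted part is unknown, so the genotype labels cannot be checked by it. The difference of 0.020 (SE 0.31) was -0.178 with wild type replicate 1 left out, 0.382 with replicate 3 left out and 0.349 without both. It was also below 0 without wild type replicate 2 (-0.145), without knockout replicate 1 (-0.115) and after quantile normalization (-0.0568). Tnfrsf4, encoding OX40, was at 4.65, 4.64, 4.40 and 4.79 in knockout, against 4.67, 4.66 and 4.99 in wild type, a difference of -0.16 (SE 0.16). It was highest on wild type replicate 3, without which the difference was -0.0453, and it was -0.0395 without wild type replicates 1 and 3.

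Of the 4 receptors with the smallest p, Tnfrsf1a, the main receptor for TNF on most cells, had the widest interval. It was at 4.17 to 4.45 in knockout, against 6.49, 4.33 and 4.21 in wild type, and its difference of -0.69 (interval -1.92 to 0.55) was 0.0502 without wild type replicate 1, -1.09 without wild type replicate 3 and -0.00969 without both. Tnfrsf13c, the BAFF receptor of B cells, which signals through the noncanonical route, was at 4.47 to 4.61 in knockout and at 4.59 to 5.10 in wild type. Its difference was -0.27 (SE 0.16, limma adjusted p = 0.9995) with -0.388 when wild type replicate 1 was left out and -0.134 when replicate 3 was. Tnfrsf9, encoding 4-1BB of activated T cells, differed by 0.22 (SE 0.16) and by 0.0726 without wild type replicate 1, as it did without replicates 1 and 3. Tnfrsf8, encoding CD30, differed by 0.17 (SE 0.14), by 0.0597 without wild type replicate 1 and by 0.251 without wild type replicate 3.

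Among proteins that work with the TRAF adaptors, none passed the test. Of 15 listed partners 14 were measured, 4 higher and 10 lower in knockout, with a median difference of -0.048 and 0 past an unadjusted p of 0.05. Birc2, encoding the inhibitor-of-apoptosis protein and ubiquitin ligase that Traf2 recruits, was at 4.54 to 4.96 in knockout and at 4.53 to 5.29 in wild type, a difference of -0.23 (SE 0.22). It was -0.0888 without wild type replicate 1, -0.469 without wild type replicate 3 and -0.413 without both. Birc3, its NF-kB-inducible relative, was at 5.77 to 5.95 in knockout, against 5.77, 6.40 and 5.59 in wild type, a difference of -0.054 (SE 0.21). It was -0.218 with wild type replicate 3 left out, 0.187 with replicate 2 left out and 0.0162 after quantile normalization. The value was -0.536 without wild type replicates 1 and 3 (limma adjusted p = 0.397), where the lone wild type array was its highest.

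Tradd, the death-domain adaptor of the TNF receptor, had the smallest p of the partners, at 4.32 to 4.52 in knockout and at 4.04 to 4.32 in wild type, a difference of 0.19 (SE 0.14, limma adjusted p = 0.9995), or 0.101 without wild type replicate 3. Otulin, a deubiquitinase for linear ubiquitin chains, was at 4.76 to 5.08 in knockout, against 6.34, 5.29 and 4.54 in wild type. Its difference of -0.44 (SE 0.39) was 0.0321 without wild type replicate 1, -0.87 without wild type replicate 3 and -0.344 without both. Traf7, a TRAF family member without the TRAF domain, differed by -0.35 (SE 0.30), by 0.0214 without wild type replicate 1 and by -0.535 without wild type replicate 3. Tnip2, which binds A20, differed by -0.17 (SE 0.15), by -0.0237 without wild type replicate 1 and by -0.236 without wild type replicate 3. Without wild type replicate 1, 6 of the 14 partners were lower in knockout.

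Of 21 IkB proteins, IKK subunits and related kinases and adaptors, 19 were measured, 7 higher and 12 lower in knockout, with a median difference of -0.12 and 0 past an unadjusted p of 0.05. Nfkbia, encoding the IkB protein whose resynthesis ends the canonical response, was at 6.06, 5.68, 5.94 and 5.94 in knockout, against 5.86, 5.92 and 5.86 in wild type. Its difference of 0.024 had the interval -0.30 to 0.35, and the wild type arrays all lay within the knockout range. It ran from -0.0287 without knockout replicate 1 to 0.100 without knockout replicate 2 and was -0.0187 without wild type replicates 1 and 3. Tnfaip3, encoding the feedback inhibitor A20, was at 2.92, 2.92, 2.49 and 2.92 in knockout, against 3.35, 2.76 and 3.39 in wild type. The difference was -0.35 (SE 0.21, interval -0.84 to 0.14), was -0.554 with wild type replicate 2 left out and -0.242 with replicate 3 left out, and turned to 0.0504 without wild type replicates 1 and 3. The 4 genes whose promoter stretches are printed above, all NF-kB targets by background, differed by 0.024 (Nfkbia), -0.11 (Nfkb2), -0.19 (Rel) and -0.35 (Tnfaip3), and none passed.

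Map3k14, encoding NIK, the kinase that TRAF adaptors restrain, was at 2.57, 2.25, 2.48 and 1.995 in knockout, against 2.38, 2.55 and 3.26 in wild type. Wild type replicate 3 stood above the rest, and the difference of -0.41 (SE 0.25, limma adjusted p = 0.9995) was -0.143 without it and -0.226 without wild type replicates 1 and 3. Ikbkb, a catalytic IKK subunit, was at 3.46 to 3.67 in knockout, against 4.53, 3.67 and 3.52 in wild type, a difference of -0.32 (SE 0.25) that was -0.00865 without wild type replicate 1, -0.511 without wild type replicate 3 and -0.0826 without both. Ikbkg, the regulatory subunit NEMO, differed by -0.0093 (SE 0.18), by 0.136 without wild type replicate 3 and by -0.191 without wild type replicate 2. Without wild type replicates 1 and 3 it was 0.354 (limma adjusted p = 0.420), the lone wild type array being its lowest. It was also above 0 without wild type replicate 1 (0.0275) and without knockout replicates 3 (0.00709) or 4 (0.00434). The other catalytic subunit, Chuk, was not analysed here.

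Malt1 and Bcl10, which link antigen receptors to the IKK complex, had the smallest p of this group. Malt1 was at 3.87, 3.89, 4.03 and 4.07 in knockout, against 4.32, 4.33 and 4.07 in wild type. Its difference was -0.28 (SE 0.14, interval -0.60 to 0.045, limma adjusted p = 0.9995), with -0.362 without wild type replicates 1 and 3. The genotypes met at a single shared value, that of knockout replicate 4 and wild type replicate 3. Bcl10 was at 4.52 to 4.97 in knockout and at 4.97 to 5.47 in wild type, a difference of -0.33 (SE 0.19), or -0.161 without wild type replicate 1. Without wild type replicate 1 the group's median difference was 0.0136, with 9 of 19 lower.

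Known NF-kB target genes were read as the furthest step of the pathway. All 26 listed were measured, 12 higher and 14 lower in knockout, with a median difference of -0.034 and 0 past an unadjusted p of 0.05. Cxcl2, a neutrophil-attracting chemokine, had the smallest p of these and was the only listed target without overlap, against 1.91% of all genes. It was at 4.41, 4.79, 4.83 and 4.68 in knockout, against 4.88, 4.85 and 5.58 in wild type, a difference of -0.42 (SE 0.22, limma adjusted p = 0.9995). The gap between the genotypes was narrow, and the difference was -0.186 without wild type replicate 3 and -0.174 without wild type replicates 1 and 3.

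Il1b, encoding interleukin-1 beta, was at 3.40, 3.40, 3.03 and 3.40 in knockout, against 3.41, 3.40 and 3.97 in wild type, a difference of -0.29 (SE 0.20), or -0.101 without wild type replicate 3. Vcam1, an endothelial adhesion molecule, differed by -0.30 (SE 0.22), and by -0.065 without wild type replicate 3. Ccl5, a chemokine for T cells and monocytes, was at 7.45, 6.61, 6.35 and 6.999 in knockout, against 6.61, 6.40 and 6.44 in wild type. Its difference was 0.37 (SE 0.27), with knockout replicate 1 the highest array and knockout replicate 3 the lowest. It was 0.171 without knockout replicate 1 and 0.540 without knockout replicate 3.

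**Figure D4:**
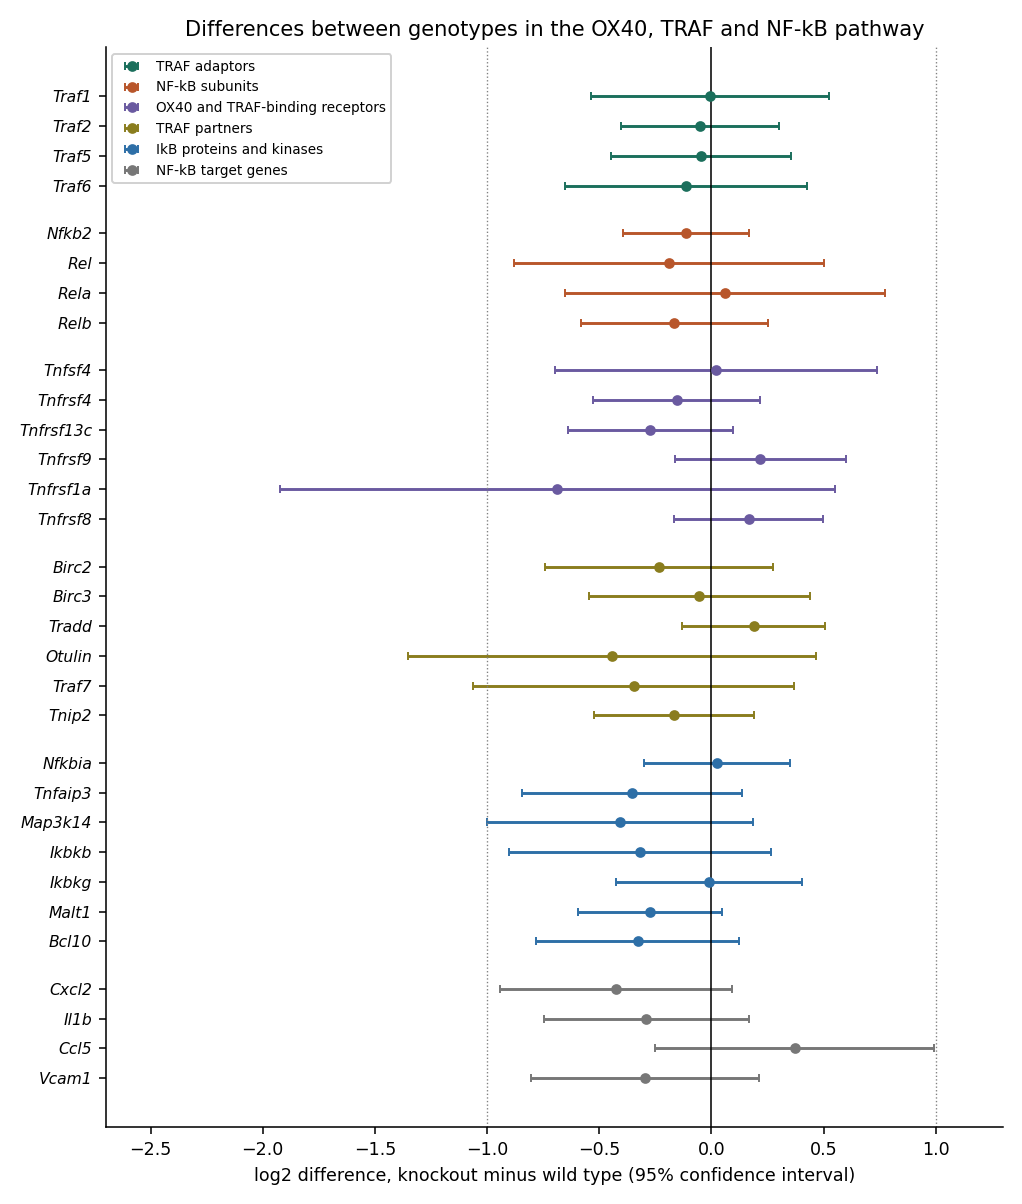
Log2 difference between genotypes (knockout minus wild type, horizontal axis) with 95% confidence intervals from limma for the 8 genes and for named genes of the pathway, coloured by group; dotted lines mark 2-fold. Every interval includes 0, and those of Tnfrsf1a, Otulin and Traf7 reach below the lower dotted line.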

How the data were processed

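The authors deposited log2 expression values. Per the submitters' processing notes these came from robust multi-array averaging (RMA) of unstated settings; its version, the probe-set definition and any build are not given in the sources used here. Of 25206 probe sets, 23185 carried 1 symbol in the annotation of the platform, 0 carried several and 2021 were unnamed here. All 23185 were matched to RefSeq names by Entrez number. Values were used as deposited, without a filter.

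Genotypes were grouped by sample title and compared with limma 3.58.1 in R 4.3.3 (lmFit and eBayes, 7 arrays, two-sided), with Benjamini-Hochberg adjustment over all 23185 genes at 0.05. Intervals are 95% limma intervals from a variance pooled over both genotypes. The number of arrays limits precision. The procedure was tested on simulated data.

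The members, gene lists and arrays to leave out were chosen with earlier results of these data known. All 8 measured members, Tnfsf4, Tnfrsf4, 8 set pathway genes (Chuk being unmeasured) and the 4 smallest p-values of each pathway list were named. List scores are mean deviations from the mean of each gene over the 7 arrays. Promoters are RefSeq sequences, GRCm38.p6. Figures used matplotlib 3.10.9.

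Because the labels do not say that samples came from separate animals, p-values cover only the spread among these samples, part of which may be technical. Description codes share a number between knockout replicates 1 and 2 (16), wild type replicates 1 and 2 (17), and wild type replicate 3 and knockout replicate 3 (18). Their meaning is not stated, and number and suffix were tried as blocks. With the number as a random block, the estimated correlation between arrays that share a number was 0.179. Same-numbered replicates of the titles did not deviate together (r of 0.00672, -0.0825 and -0.0984 across genes), so they were not treated as pairs. Other alternatives were quantile normalization of the deposited values, median centring, trend with robust moderation, array weights, dim filters of 30% and 50%, all probe sets and leaving out arrays.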

Additional observations from a re-analysis of the deposited data

Results flagged for a closer look

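In 31 genes checked, 4 had a knockout array whose gap to its nearest neighbour took up most of the range of the 4 knockout arrays, by Dixon's 95% criterion. Chance alone flags about 1 in 20 such groups where values are untied. Over all 23185 genes the criterion was met in 20.3%, and in 10.5% of genes 3 or more knockout arrays shared an identical deposited value, as in Tnfaip3 and Il1b, where such a tie fixes the ratio at its highest. Nfkb2 was at 3.23 on knockout replicate 3, against 3.29 to 3.30 on the other knockout arrays, which is a small distance in a narrow group. Tnfaip3 was at 2.49 on knockout replicate 3, against 2.92 on each of the other 3. Il1b was at 3.03 on the same array, against 3.40 on each of the others. Tnfsf4 was at 3.35 on knockout replicate 1, against 2.81 to 2.82 on the others.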

How the results depend on the processing

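In every alternative run, 0 of the measured TRAF and NF-kB genes had an unadjusted p under 0.05 in limma, and none was called after adjustment. Their median difference of -0.082 was -0.00624 without the dimmest 50% of genes, where 3 of them were left, and -0.00444 without wild type replicates 1 and 3. Over all genes, the count at an adjusted p under 0.05 was 1. It became 0 after quantile normalization, median centring or trend with robust moderation. The count was also 0 with the replicate block, the code suffix as block, all probe sets or any single array left out. The count at an unadjusted p was 436, and 716 after quantile normalization again, 3003 with array weights, 219 without the dimmest 50%, 251 with the replicate block, 278 with the suffix block, 2024 without wild type replicates 1 and 3, and 249 to 2786 with single arrays left out. The replicate block called none of the 8 genes; knockout replicate 2 deviated most like wild type replicate 3 (r = 0.118), not its own number. The default estimator of array weights did not converge, so a gene-by-gene estimator was chosen after seeing the data.

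Directions turned for 7 of the 8 genes under some alternative, Nfkb2 being the exception; the cause was not tested. With array weights the differences were 0.000709 for Traf1, 0.0252 for Traf2, 0.0326 for Traf6, -0.0294 for Rela and 0.0303 for Relb, and without wild type replicates 1 and 3 they were 0.00673, 0.0243, 0.0942, -0.0419 and 0.0546. The weight was 3.72 for wild type replicate 2, against 0.203 and 0.208 for wild type replicates 1 and 3. Both settings therefore rest mostly on the same wild type array and are not separate checks. With single arrays left out the differences ran from -0.223 to 0.217 for Traf1, -0.127 to 0.0182 for Traf2, -0.177 to 0.0979 for Traf5, -0.22 to 0.0942 for Traf6, -0.161 to -0.0656 for Nfkb2, -0.488 to 0.144 for Rel, -0.312 to 0.383 for Rela and -0.275 to 0.017 for Relb. For Traf6, Rel and Rela the 95% intervals reach past 1.5-fold.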

Other observations

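Knockout replicate 3 stood apart in Ccl2, Saa3 and Cxcl13, which were picked from 26 listed NF-kB target genes after their values were seen. Over all genes this array was lowest in 7.63% and highest in 10.5%. Among the other listed targets it was also lowest for Il1b, Cxcl10, Ccl5 and Csf2 and highest for Cxcl1. Whether the listed targets differ from all genes in this was not tested. Ccl2, a monocyte-attracting chemokine, was at 6.71, 6.29, 4.24 and 7.01 in knockout replicates 1 to 4, against 6.59, 7.48 and 5.68 in wild type, a difference of -0.52 (SE 0.72). Saa3, an acute-phase serum amyloid, was at 5.73, 6.36, 3.57 and 5.55 in knockout, against 7.89, 5.55 and 4.21 in wild type, a difference of -0.58 (SE 0.96). Cxcl13, the B cell chemokine that the noncanonical route is known to induce, was at 5.40, 6.06, 8.54 and 6.06 in knockout, against 5.89, 7.20 and 5.61 in wild type, a difference of 0.29 (SE 0.77). On this array Ccl2 and Saa3 had their lowest and Cxcl13 its highest value of all 7, and none of the 3 genes passed in limma (adjusted p = 0.9995 for each).

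Of the 8 TRAF and NF-kB genes, 5 had exactly the same deposited value on at least 2 arrays and 3 of them (Traf2, Traf6 and Relb) on 3 arrays. Over all genes, 54.3% had such a shared value and 27.0% had it on at least 3 arrays.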
